A study of Mus musculus with 24 samples.

Results

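Immunoglobulin genes were measured by RNA sequencing in 24 libraries of mouse bone marrow-derived macrophages (BMDMs), phagocytes grown in culture from bone marrow. Members were the rows of the gene table whose symbol follows the naming of heavy, kappa or lambda immunoglobulin segments, or is that of the J chain, and that reached a value of 1 in 3 or more libraries. Of the 43629 rows, 322 carried such a symbol and 183 of these passed the value threshold. One of the 183, Ighmbp2, is a helicase gene on chromosome 19 that only shares the first letters of the name, so 182 immunoglobulin members remained. The values themselves decided which rows passed, and no test is made of that choice.

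Immunoglobulin chains are built by B lymphocytes and plasma cells. In a heavy chain gene, a variable (V), a diversity (D) and a joining (J) segment are cut and joined in front of a constant gene, whereas kappa and lambda light chain genes join a V and a J segment only. The constant gene sets the class of the antibody: Ighm encodes the mu chain of IgM, Igha the alpha chain of IgA, and the Ighg genes the gamma chains of the IgG subclasses. The J chain, encoded by Igj, is a separate small protein that links IgA or IgM units into polymers. Myeloid cells such as macrophages are not the usual source of these transcripts.

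The cells came from C57BL/6 mice at postnatal week 10. The knockout (KO) cells lacked CITED2, a transcriptional co-regulator, and the other cells were Wild Type (WT). Each genotype was cultured with lipopolysaccharide (LPS, a bacterial membrane component), with interferon gamma (IFNg), with interleukin 4 (IL4) or as a control, and each of the 8 groups (KO LPS, WT LPS, KO IFNg, WT IFNg, KO IL4, WT IL4, KO control and WT control) had 3 libraries. The way the gene was deleted, the cells in which it was deleted, the doses and the treatment times are not given in the sources used here. Whether replicates came from separate mice or cultures is not in the labels, and all p-values here speak of the spread between libraries alone, which may be technical. In bulk RNA, fewer cells of a type and less RNA per cell cannot be told apart.

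The targeted gene followed the labels: Cited2 had values of 8.52 to 94.5 in KO libraries and 1117 to 4174 in WT libraries. Libraries held 1478507 to 73409343 reads. The deposited values are read counts divided by 1 factor per library, and 1 read was worth a value of 23.6 in KO LPS replicate 1, the shallowest library, against 0.355 to 4.08 in the other libraries. A floor of 3 reads is thus a value of 70.9 in KO LPS replicate 1. Immunoglobulin members took 351 to 15165 reads in KO libraries (3816 to 15165 without KO LPS replicate 1), which was 0.0201% to 0.0340% of all reads, and 309 to 3513 reads in WT libraries, which was 0.00180% to 0.00915%. The 8 macrophage markers, among them Adgre1 and Csf1r, summed to values of at least 130952 in every library, so the label of the cells stood beside their markers and the immunoglobulin transcripts were a trace.

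The 182 members were 83 heavy V, 78 kappa V and 3 lambda V segments, 4 heavy and 4 kappa J segments, 7 heavy constant genes, the kappa constant gene Igkc, the lambda constant gene Iglc2 and Igj. Of 20 heavy D segments, which are only 10 to 29 bases long, none passed, and 1 read fell in all of them together. The rows that did not pass held 170 reads in all, against 98758 in the members. Just inside the threshold stood Ighv8-5 and Ighv1-28, with 1.18 and 1.23 as the third highest value, and just outside it Ighv11-2 and Igkv11-125, with 0.942 and 0.897. The threshold was reached in KO libraries alone by 180 of the 182 members, and in WT libraries alone by 104. The other members could pass only through KO libraries, so counts over the members that passed are descriptive.

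The segments that carried the most reads in each V class are shown first, as germline coding sequence of the reference genome (GENCODE M21, build GRCm38), because every count below is a count of reads falling on such segments and not on a rearranged gene. Ighv3-6 (chr12:114288152-114288582, minus strand), Igkv10-96 (chr6:68631963-68632442, minus strand) and Iglv1 (chr16:19085017-19085500, minus strand) had the largest mean value of the heavy, kappa and lambda V segments. The lines give the last 300 bases of each coding sequence, and capitals mark the last in-frame cysteine codon, close to where the V segment is joined to the next segment.
Ighv3-6: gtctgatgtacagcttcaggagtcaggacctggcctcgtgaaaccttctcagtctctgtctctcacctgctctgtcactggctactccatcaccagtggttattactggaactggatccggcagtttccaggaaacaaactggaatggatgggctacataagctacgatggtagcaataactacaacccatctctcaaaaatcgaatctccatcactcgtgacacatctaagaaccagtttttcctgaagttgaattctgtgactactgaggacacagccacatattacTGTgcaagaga
Igkv10-96: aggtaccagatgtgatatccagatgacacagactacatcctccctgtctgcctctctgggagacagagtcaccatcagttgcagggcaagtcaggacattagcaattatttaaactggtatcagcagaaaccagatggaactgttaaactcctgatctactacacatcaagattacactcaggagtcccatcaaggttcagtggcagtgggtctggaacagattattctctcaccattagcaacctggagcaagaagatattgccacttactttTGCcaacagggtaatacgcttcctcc
Iglv1: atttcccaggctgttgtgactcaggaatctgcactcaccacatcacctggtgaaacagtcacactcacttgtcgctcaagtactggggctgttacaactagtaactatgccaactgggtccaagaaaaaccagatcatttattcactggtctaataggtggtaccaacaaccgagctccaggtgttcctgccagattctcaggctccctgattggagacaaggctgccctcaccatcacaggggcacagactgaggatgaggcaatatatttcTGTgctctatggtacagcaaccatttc
V segments resemble each other: 138 of 162 V members with a coding transcript shared a stretch of at least 50 bases with another V gene, and 19 shared such stretches over more than 50% of their length. Ighv3-6 shared 2.91% of its stretches, Iglv1 22.2%, Igkv10-96 32.6% and Igkv1-110 50.9%. How the authors counted reads that match several segments is not given in the sources used here, so the split of reads among near-identical V genes is uncertain and sums over a class are firmer than single V genes.

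Summed over a class, immunoglobulin transcripts were higher in KO than in WT macrophages under every treatment. Heavy V segments summed to 591, 705 and 611 in KO LPS, against 65.2, 61.4 and 77.4 in WT LPS libraries. They summed to 469, 506 and 454 in KO IFNg, against 58.3, 64.4 and 76.1 in WT IFNg libraries. In KO IL4 libraries they summed to 372, 299.9 and 312, against 21.3, 22.3 and 18.8 in WT IL4 libraries. The genotypes did not overlap under any treatment, and the WT IL4 libraries were the lowest of all. In control cultures the sums were 471, 497 and 488 in KO and 65.2, 53.5 and 34.2 in WT libraries. The ratio of KO to WT means was 9.35 with LPS, 7.19 with IFNg, 15.7 with IL4 and 9.52 in control.

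Kappa V segments moved with the heavy ones. Their sums averaged 1289 ± 83.9 in KO LPS and 171 ± 31.4 in WT LPS, 981 ± 20.5 in KO IFNg and 160.4 ± 7.57 in WT IFNg, 630.2 ± 67.4 in KO IL4 and 42.7 ± 7.92 in WT IL4, and 955 ± 6.52 in KO control and 104 ± 24.6 in WT control libraries (SD, n = 3 each). The KO to WT ratios were 7.52, 6.12, 14.8 and 9.17, in the order LPS, IFNg, IL4 and control. The 3 lambda V segments were less abundant, with means of 64.9 ± 7.97 in KO control and 12.5 ± 6.10 in WT control libraries, and KO to WT ratios of 4.35, 6.56, 10.6 and 5.17 in the same order. In the library with the fewest reads, KO LPS replicate 1, the lambda V sum of 23.6 was a single read. The smallest KO library was above the largest WT library in all 3 V classes under all 4 treatments, by at least 5.69-fold for heavy and kappa V and by at least 1.16-fold for lambda V. No p-value is attached to these sums, because the members were chosen with results of these data known. With reads scaled to the library total (RPM) in place of the deposited factors, the ratios kept their direction, with heavy V at 8.34, 6.89, 14.8 and 9.11.

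**Figure D1:**
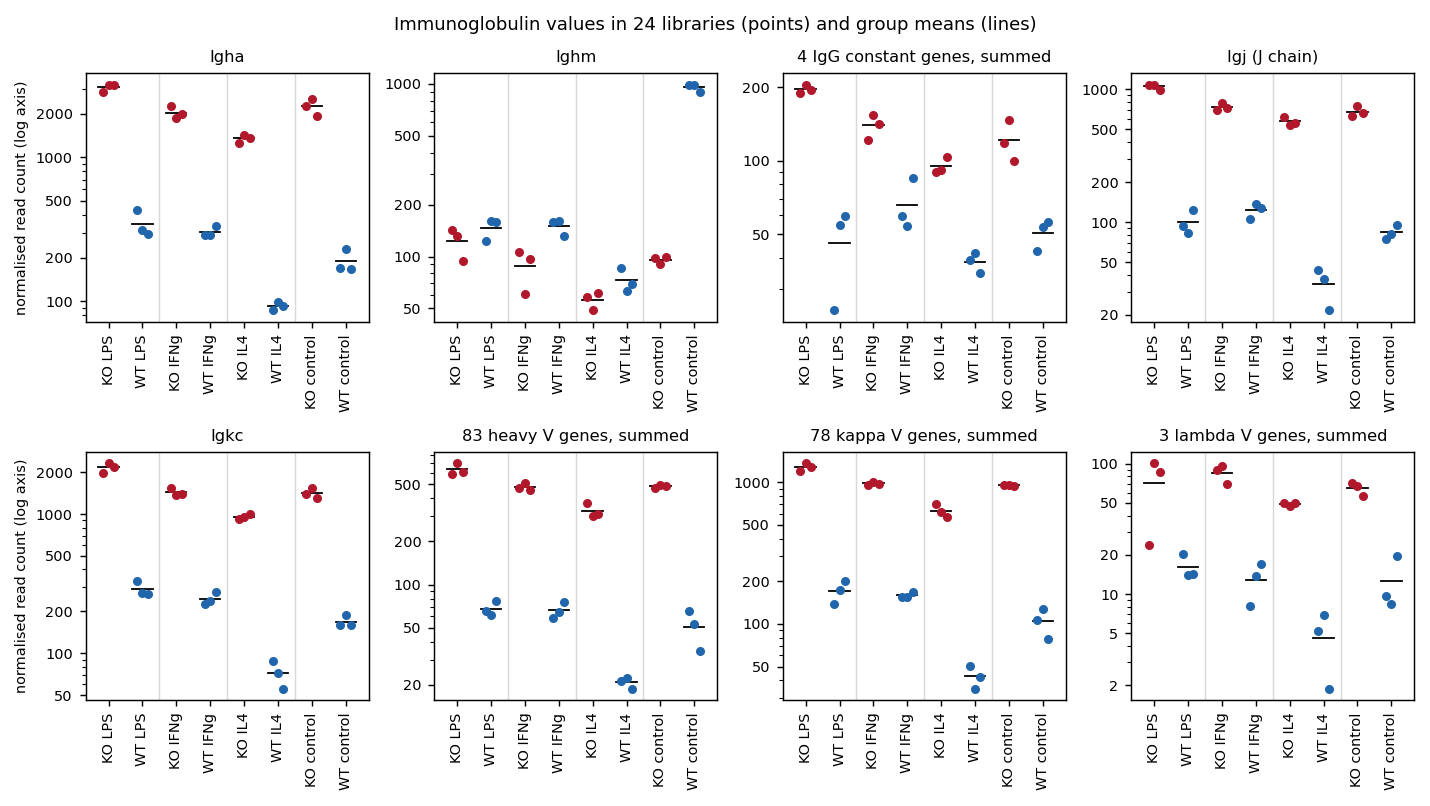
Deposited values (normalised read counts, log axis) of immunoglobulin classes in each of the 24 libraries, with KO left of WT under each treatment; each point is 1 library. KO libraries lie above WT libraries of the same treatment in every panel but that of Ighm, whose WT control libraries stand highest at 894 to 991; lines are group means.

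Among single members, the fit across all genes called 70 of 182 higher and 0 lower in KO than in WT cultures with LPS, where 9.7% of all 18637 genes tested were called higher and 12.5% lower (limma, Benjamini-Hochberg adjusted p below 0.05). With IFNg, 62 were higher and 1 lower, where 4.83% of all genes were higher and 4.21% lower. With IL4, 70 were higher and 0 lower, where 6.14% of all genes were higher and 3.14% lower. In control cultures 79 were higher and 1 lower, where 4.11% of all genes were higher and 3.05% lower. Of the 104 members that reached the value threshold in WT libraries alone, 52, 45, 57 and 59 were called higher with LPS, IFNg, IL4 and in control.

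At an unadjusted p below 0.05, limma put 0 members lower with LPS and with IL4, and edgeR and DESeq2 also called 0 lower there. Members that needed KO libraries to pass the threshold had low WT values and could hardly be called lower in KO. Among the 104 that reached it in WT libraries alone, 0, 1, 0 and 1 were called lower with LPS, IFNg, IL4 and in control (limma). The counts of members called higher moved when libraries were left out. With LPS the count was 125 without KO LPS replicate 1, and 18 when only the 6 LPS libraries were fitted. With IFNg it was 39 without WT IFNg replicate 1 or WT IFNg replicate 2. With IL4 it was 43 without KO IL4 replicate 1, and in control 49, 50 and 51 without KO control replicate 1, KO control replicate 2 and WT control replicate 2. In each case the members called higher far outnumbered those called lower. Shares of all genes called in these fits are not given here, so the moved counts are descriptive.

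Called higher under all 4 treatments were 34 members: 11 heavy V, 14 kappa V and 4 kappa J segments, Iglv1, Igha, Ighg2c, Igkc and Igj. Another 24 were called under 3 treatments, 21 under 2, 31 under 1 and 72 under none. The same counts over all genes tested are not given here, so repeated calls are a description of the members alone. Over all 182 members the median log2 difference was 1.5 with LPS, 1.58 with IFNg, 1.79 with IL4 and 1.95 in control, where the median of all genes lay between -0.06 and 0. Only 104 members reached the threshold in WT libraries alone, so the choice of members favours higher values in KO. The medians are therefore descriptive.

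**Figure D2:**
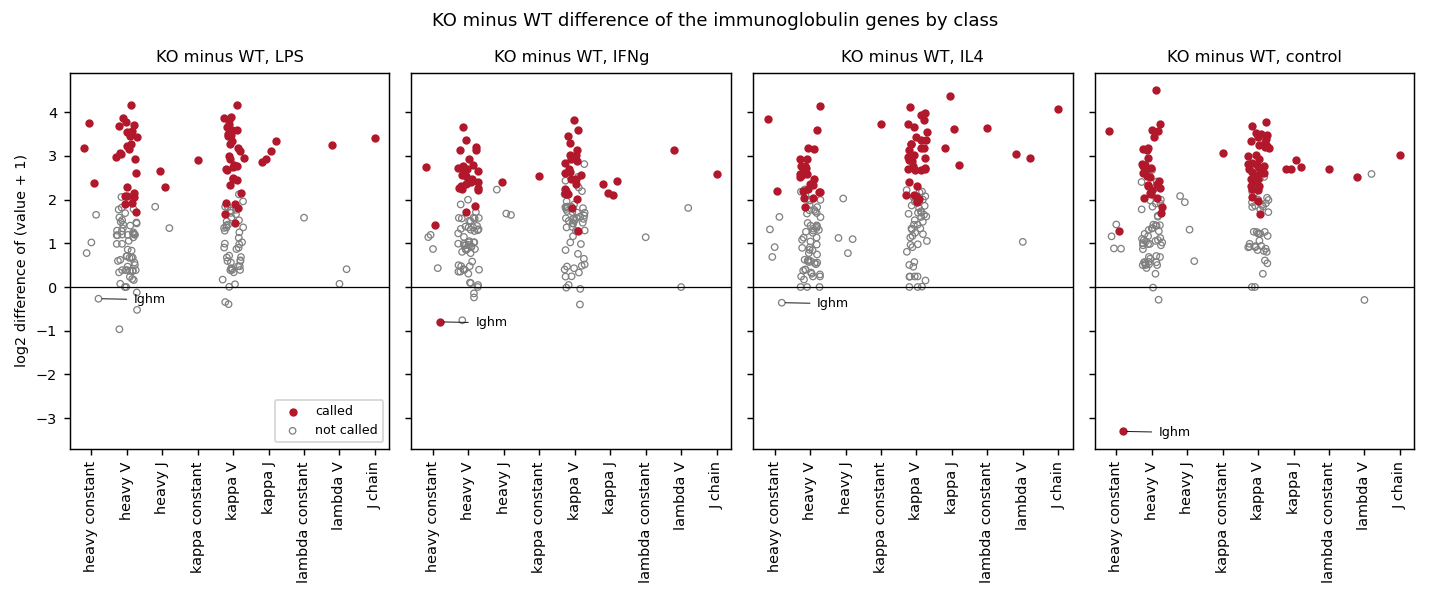
Log2 differences (KO minus WT, on the scale of log2 of the value plus 1) of every member under each treatment, grouped by class; each point is a gene, filled where called. Points of the V, J and light chain classes lie mostly above 0, with class medians in control of 1.63 for heavy V and 2.17 for kappa V, while Ighm lies at -3.31 in control.

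Igha (chr12:113254830-113260236, minus strand), the alpha constant gene of IgA, was the most abundant member, with 31358 reads over the 24 libraries. It had 2859, 3178 and 3204 in KO LPS, against 428, 311 and 292 in WT LPS libraries. With IFNg it had 2282, 1865 and 1997 in KO, against 288, 289 and 334 in WT libraries. Every KO library was several-fold above every WT library under these treatments. With IL4 the values were 1262, 1431 and 1361 in KO and 86.5, 99.0 and 93.3 in WT libraries, and in control 2277, 2560.5 and 1929 in KO and 169.8, 231 and 169 in WT libraries. The log2 differences were 3.18 ± 0.13 with LPS, 2.75 ± 0.13 with IFNg, 3.85 ± 0.13 with IL4 and 3.57 ± 0.13 in control (± SE), with adjusted p-values of 2.13e-14, 5.63e-13, 3.51e-16 and 6.12e-15 (limma, Benjamini-Hochberg). These calls held under all 15 alternatives in each comparison.

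The IgG constant genes differed less between the genotypes. Ighg2c, the gamma-2c chain of C57BL/6 mice, rose in KO under all 4 treatments, with 70.9, 79.3 and 80.1 in KO LPS against 8.15, 19.6 and 16.7 in WT LPS libraries, and 27.8, 29.9 and 51.1 in KO IL4 against 6.92, 8.01 and 5.65 in WT IL4 libraries. Its log2 differences were 2.38, 1.41, 2.2 and 1.28 with LPS, IFNg, IL4 and in control, with adjusted p-values of 2.36e-05, 0.0111, 0.000105 and 0.0273 (limma, Benjamini-Hochberg). The value 70.9 in KO LPS replicate 1 is 3 reads. The control call was lost under 5 of 15 alternatives and the IFNg call under 2, without KO IFNg replicate 3 or WT IFNg replicate 2.

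Ighg1, the gamma-1 chain, was called with LPS alone, at 94.5, 28.9 and 47.6 in KO LPS and 4.08, 0.633 and 5.95 in WT LPS libraries (log2 difference 3.74 ± 0.58 SE, limma adjusted p = 3.11e-05, which ranged from 1.33e-06 to 0.0702 over 15 alternatives). In control it had 27.6, 26.1 and 25.4 in KO and 14, 12.9 and 14.7 in WT libraries, without overlap. The limma adjusted p was 0.573. The fit shares the spread of a gene over all 8 groups, the uneven LPS groups included. A missing call in control is thus not a sign of equal levels. Ighg2b, the gamma-2b chain, had 47.2, 76.3 and 41.2 in KO control and 11.9, 18.1 and 31.8 in WT control libraries, also without overlap, and log2 differences of 1.02, 0.87, 0.91 and 1.43 with LPS, IFNg, IL4 and in control. It was called under none of the 4 by limma (adjusted p = 0.0602 in control, 2.98e-05 to 0.288 over 15 alternatives), although edgeR on the recovered reads called it higher under all 4. Ighg3 and Ighd, the gamma-3 and delta chains, had 38 reads each over all libraries and were not called. Summed, the IgG genes had KO to WT ratios of 4.26 with LPS, 2.11 with IFNg, 2.46 with IL4 and 2.39 in control, against 8.20, 5.98, 13 and 8.97 for all immunoglobulin members except Ighm.

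Ighm (chr12:113418558-113422730, minus strand), the mu constant gene, was the only member called lower in KO, in control and with IFNg. It had 98.0, 89.9 and 99.97 in KO control, against 991, 991 and 894 in WT control libraries. With LPS the genotypes overlapped, at 142, 132 and 93.9 in KO and 122, 159.5 and 158 in WT libraries. With IFNg the values were 107, 60.7 and 96.4 in KO and 158, 160.1 and 132 in WT libraries, and with IL4 58.5, 48.8 and 61.8 in KO and 85.9, 62.9 and 69.7 in WT libraries. With IFNg and with IL4 the KO libraries lay below the WT libraries without overlap, by far less than in control cultures. The fall with IFNg was small (log2 difference -0.80 ± 0.19 SE, limma adjusted p = 0.00764), and Ighm was not called with LPS (-0.27) or IL4 (-0.36). The IFNg call was lost without KO IFNg replicate 2 and when only the 6 IFNg libraries were fitted (adjusted p 2.9e-05 to 0.104 over 15 alternatives).

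The makeup of the heavy constant genes therefore differed between the genotypes. Per kilobase of exon, Igha made up 87.2% ± 1.30 of the summed heavy constant level in KO LPS, 86.7% ± 1.11 in KO IFNg, 86.3% ± 1.71 in KO IL4 and 88.1% ± 0.843 in KO control libraries (SD, n = 3 each). In WT it was 55.9% ± 10.1 with LPS, 50.7% ± 2.49 with IFNg, 38.5% ± 4.01 with IL4 and 11.7% ± 1.61 in control. Ighm made up 5.39% ± 0.989 in KO control and 84.0% ± 1.90 in WT control libraries. The mean share of Igha was nearly the same in the KO groups and was lower in each WT group, least with LPS and most in control.

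Ighm also stood apart from the V segments. For each unit of summed heavy V value, Ighm had 0.208, 0.181 and 0.205 in KO control, against 15.2, 18.5 and 26.1 in WT control libraries. Over all libraries this ratio lay between 0.120 and 0.240 in KO and between 1.74 and 26.1 in WT. Summed heavy V per unit of Igha was more even, at 0.207, 0.194 and 0.253 in KO control and 0.384, 0.232 and 0.203 in WT control libraries. It ranged from 0.191 to 0.295 in KO and from 0.152 to 0.384 in WT, so the genotypes overlapped.

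Igkc (chr6:70726435-70726966, plus strand), the only kappa constant gene, had 1985, 2335 and 2177 in KO LPS, against 330.2, 271 and 268 in WT LPS libraries. With IL4 it had 916, 949 and 1009 in KO, against 88.2, 72.1 and 55.6 in WT libraries. In control it had 1385, 1551 and 1315 in KO, against 161, 187 and 159 in WT libraries. No KO library overlapped a WT library of the same treatment. The log2 differences were 2.90 ± 0.13, 2.54 ± 0.13, 3.74 ± 0.13 and 3.06 ± 0.13 (± SE) with LPS, IFNg, IL4 and in control, the largest limma adjusted p of the 4 being 8.22e-13. Per kilobase, Igkc stood at 3.04 to 3.72 times Igha in KO libraries and at 2.99 to 5.12 times in WT libraries.

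Igj (chr5:88519809-88527891 on the minus strand, named Jchain in GENCODE M21) paralleled Igha and Igkc. The values were 1087, 1088 and 985 in KO LPS against 93.8, 83.6 and 123 in WT LPS, and 633, 748 and 662 in KO control against 74.4, 81.9 and 95.3 in WT control libraries. With IL4 they were 621, 540.0 and 561 in KO, against 43.8, 37.2 and 21.7 in WT libraries, the lowest WT values of any culture. Igj rose in KO under all 4 treatments, by log2 3.40, 2.58, 4.08 and 3.01 with LPS, IFNg, IL4 and in control, and as for Igkc the calls held under all 15 alternatives of each comparison (limma, Benjamini-Hochberg).

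The lambda chain was sparser. Iglc2, a lambda constant gene, had 23.6, 19.5 and 26.6 in KO IL4, against 0.577, 0.572 and 1.88 in WT IL4 libraries (log2 difference 3.64 ± 0.79 SE, limma adjusted p = 0.00265). In control it had 21.4, 22.0 and 19.3 in KO, against 3.77, 1.29 and 2.44 in WT libraries. The control groups did not overlap, but the call (limma adjusted p = 0.0362) was lost without any 1 of the 6 libraries. With LPS it had no read in KO LPS replicate 1 and values of 25.2 and 25.0 in the other KO libraries, against 4.08, 1.27 and 1.19 in WT libraries, and was not called with all libraries (limma adjusted p = 0.162) but was called without KO LPS replicate 1 (log2 3.16; adjusted p 1.5e-07 to 0.608 over 15 alternatives). Iglv1, printed above, had 71.2, 74.8 and 60.2 in KO IFNg, against 2.69, 9.69 and 11.7 in WT IFNg libraries. It rose in KO under all 4 treatments, with log2 differences of 3.26, 3.13, 3.05 and 2.52 (limma), the control call being lost under 7 of 15 alternatives. Iglv3 was called with IL4 alone, and Iglv2, with values of at most 5.01 in any library, under no treatment.

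Single V segments followed the class sums. Ighv3-6 had 31.9, 39.7 and 29.8 in KO IL4, against 1.73, 1.72 and 0 in WT IL4 libraries (log2 difference 4.15 ± 0.56 SE, limma adjusted p = 8.58e-06). With IFNg it had 32.2, 41.6 and 36.1 in KO, against 5.38, 6.27 and 2.84 in WT libraries. In both cultures all 3 KO libraries were above all 3 WT libraries. Ighv1-82 had 12.3, 22.0 and 19.3 in KO control, against 1.62, 0 and 0 in WT control libraries, and log2 differences of 3.77, 3.65, 3.60 and 3.73 with LPS, IFNg, IL4 and in control, all called by limma.

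Igkv1-110 had 94.5, 99.6 and 110.1 in KO LPS, against 16.3, 17.1 and 11.9 in WT LPS libraries. It had 62.1, 69.0 and 65.0 in KO IL4, against 5.19, 0.572 and 4.71 in WT IL4 libraries (log2 difference 4.12 ± 0.45 SE, limma adjusted p = 3.17e-07). The WT IL4 group had the lowest mean of the 8 groups, with 1 of its libraries at a single read. Ighv1-82, Igkv1-110, Igkv1-117, Igkv3-4 and Igkv6-15 kept their calls under all 4 treatments in every one of the 15 alternatives.

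The next most abundant heavy V segments gave the same picture at fewer reads. Ighv1-81 had 20.3, 23.7 and 22.8 in KO IFNg, against 5.38, 3.99 and 2.13 in WT IFNg libraries. Ighv1-9 had 21.4, 12.5 and 25.4 in KO control, against 4.31, 1.29 and 2.44 in WT control libraries. Ighv5-6 had 19.6, 13.6 and 26.3 in KO control, against 1.62, 2.58 and 2.44 in WT control libraries. None of these pairs of groups overlapped, and all 3 segments were called higher in KO under all 4 treatments (limma). Ighv9-3 was called with IFNg alone, with 33.9, 11.5 and 26.8 in KO IFNg against 0.896, 1.71 and 2.49 in WT IFNg libraries, although its genotypes did not overlap with IL4 or in control either. At this depth the calls were fragile: the control call of Ighv1-81 and the IL4 call of Ighv1-9 were each lost under 8 of 15 alternatives.

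Among kappa V segments, Igkv1-135 had 25.4, 20.2 and 22.4 in KO IL4, against 1.15, 2.86 and 0 in WT IL4 libraries, and rose in KO under all 4 treatments (log2 2.93, 3.60, 3.54 and 3.77 with LPS, IFNg, IL4 and in control, limma). Igkv6-15 had 52.5, 49.2 and 48.2 in KO IFNg, against 0, 6.27 and 5.33 in WT IFNg libraries. Igkv8-24 had 44.1, 35.5 and 32.4 in KO control, against 1.08, 2.58 and 4.88 in WT control libraries, and no read in KO LPS replicate 1. For Igkv8-24 the IL4 and control differences were called, and the IFNg and LPS differences were not (limma adjusted p = 0.0605 and 0.166).

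Igkv10-96, the most abundant V segment, had the least even values among the KO LPS libraries. With LPS it had no read in KO LPS replicate 1 and values of 178 and 139 in the other KO libraries, against 12.2, 24.1 and 22.6 in WT libraries. The log2 difference was 0.56 ± 1.09 (SE) and not called (limma adjusted p = 0.784), and 3.00 without that library. With IFNg it had 125, 117 and 122 in KO, against 30.5, 18.2 and 25.6 in WT libraries, without overlap. The difference was not called (limma adjusted p = 0.267, 1.04e-11 to 0.493 over 15 alternatives). The spread in that fit is shared over all 8 groups and takes in KO LPS replicate 1, which had no read. With IL4 the values of 88.7, 65.7 and 76.7 in KO and 9.22, 4.0 and 2.83 in WT libraries gave a log2 difference of 3.74 and a limma adjusted p of 0.0282 (8.19e-19 to 0.121 over 15 alternatives, 6 of which lost the call).

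The largest differences of members whose genotypes did not overlap were those of Ighv8-12 with LPS (log2 4.17), Igkv6-15 with IFNg (3.83), Igkj2 with IL4 (4.36) and Ighv3-6 in control (4.50). These fitted values depend on the pseudocount of 1, since most WT libraries had few reads of these segments.

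J segments are short, and the bases that a read can match are few. The kappa J segments (GRCm38 chromosome 6, plus strand, at chr6:70722562-70722599, chr6:70722916-70722958, chr6:70723223-70723260, chr6:70723548-70723585 and chr6:70723886-70723927) are shown because all 4 that passed were called higher in KO under every treatment, while Igkj3 did not pass. Capitals mark the codons of the phenylalanine, glycine, any residue, glycine motif of functional light chain J segments, searched on the coding strand as TTNGGNNNNGG.
Igkj1: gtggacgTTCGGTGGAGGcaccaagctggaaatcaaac
Igkj2: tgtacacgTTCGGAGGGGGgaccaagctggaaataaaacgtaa
Igkj3: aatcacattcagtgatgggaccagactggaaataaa
Igkj4: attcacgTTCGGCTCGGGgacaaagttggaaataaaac
Igkj5: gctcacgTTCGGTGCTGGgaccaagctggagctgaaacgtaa
The letters were found in 4 of the 5 kappa segments and in 0.857% of 38-base windows at the start of 141715 GENCODE M21 transcripts. Over the 24 libraries Igkj2 had 611 reads, Igkj1 429, Igkj5 323 and Igkj4 228. Igkj3, in which these letters were not found, had 4 reads.

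Igkj1 had 47.3, 44.3 and 48.8 in KO LPS, against 8.15, 5.70 and 3.57 in WT LPS libraries. In control it had 29.4, 31.4 and 28.9 in KO, against 6.47, 3.22 and 2.44 in WT libraries. Its log2 differences were 2.87, 2.35, 3.19 and 2.69 with LPS, IFNg, IL4 and in control, called by limma under all 15 alternatives of each comparison. Igkj2 had 32.5, 33.8 and 31.9 in KO IL4, against 0, 3.43 and 0 in WT IL4 libraries, where 2 of 3 had no read. Its log2 difference of 4.36 ± 0.54 (SE, limma adjusted p = 1.97e-06) was the largest of any member with IL4. Heavy J segments had 397 reads in all. Ighj2 rose in KO with LPS (log2 2.66) and IFNg (2.41) and Ighj3 with LPS (2.28), whereas Ighj1 and Ighj4 were called under no treatment (limma).

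Within each class, the mix of V segments was broad in both genotypes. The effective number of segments (the inverse of the Simpson index, the chance that 2 reads drawn without replacement come from the same segment) was computed where a library had at least 100 reads of the class. For heavy V it was 29.7 to 38.3 in 11 KO libraries and 27.2 to 34.7 in 3 WT libraries, and for kappa V 21.1 to 27.5 in 11 KO and 17.3 to 23.7 in 7 WT libraries. These ranges overlapped. The most used segment took 7.22% to 13.2% of heavy V reads in KO and 8.26% to 9.73% in WT libraries, and 9.78% to 13.5% of kappa V reads in KO and 11.2% to 19.5% in WT libraries.

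Ighv3-6, Igkv10-96 and Iglv1 led their classes in both genotypes. Of the values summed over the 12 libraries of a genotype, Ighv3-6 took 8.77% of heavy V in KO and 6.42% in WT. Igkv10-96 took 10.5% of the kappa V value in KO and 11.9% in WT, Igkv1-110 9.03% in KO and 8.80% in WT, and Igkv1-117 7.39% in KO and 7.63% in WT. Iglv1 took 79.8% of the lambda V value in KO and 61.7% in WT. Of the 10 most used heavy V segments in KO, 7 were also among the 10 most used in WT, and of the 10 most used kappa V segments, 5 were. Across segments, the shares in KO and WT had a Pearson r of 0.789 over 83 heavy V and 0.955 over 78 kappa V segments, given as a description, since the segments of a library share its depth and its reads.

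Some segments took a different share in the genotypes, though WT shares rest on few reads. Ighv1-82 took 3.74% of the heavy V value in KO and 1.05% in WT. Ighv1-26 took 2.70% in KO and 6.09% in WT, with the higher WT share in the LPS, IFNg and IL4 cultures and the lower in control (3.30% in KO control and 1.06% in WT control). By family, Ighv1 segments took 51.1% of the heavy V value in KO and 55.4% in WT, Ighv5 segments 10.7% in KO and 13.7% in WT, and Ighv14 segments 5.57% in KO and 2.65% in WT. Among kappa families Igkv1 took 22.1% in KO and 21% in WT, and Igkv4, the family with the most members, 11% in KO and 8.73% in WT. No test was made of these shares.

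**Figure D3:**
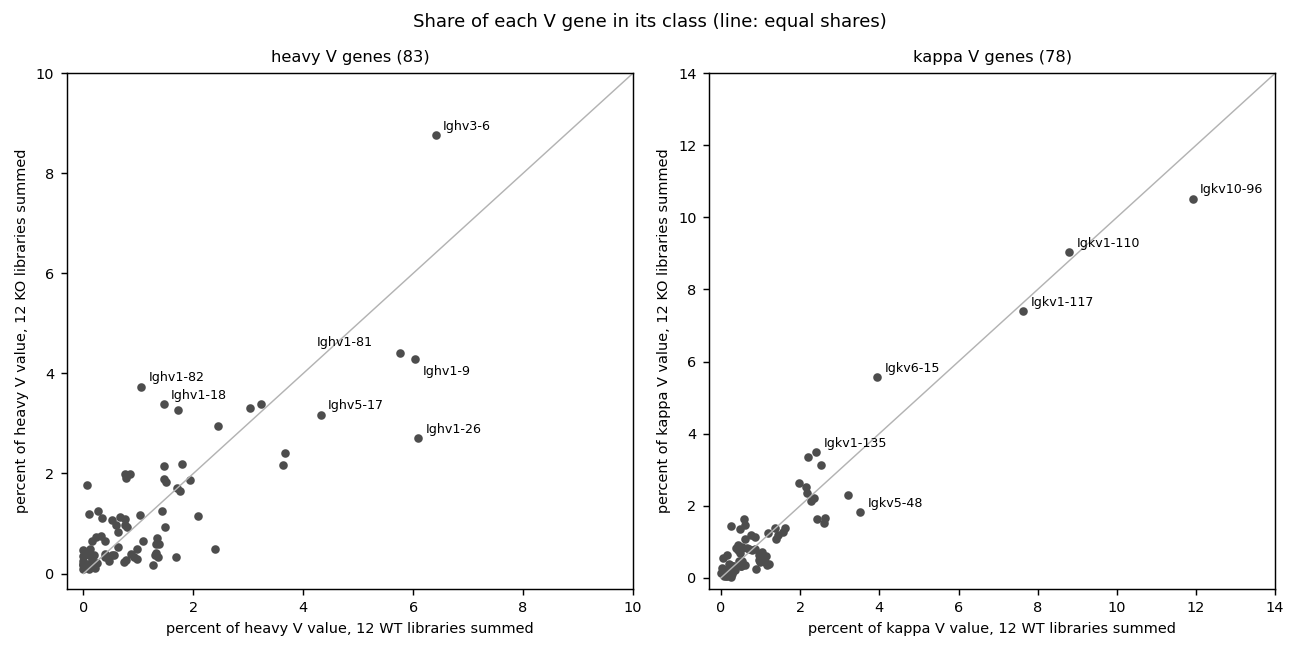
Share of each V segment in its class (percent of the value summed over 12 libraries), with KO on the vertical and WT on the horizontal axis, for heavy and kappa V; the line marks equal shares. Igkv10-96 (10.5% in KO and 11.9% in WT) and Ighv3-6 (8.77% in KO and 6.42% in WT) lead their classes in both genotypes, while Ighv1-82 lies on the KO side and Ighv1-26 on the WT side.

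The response to each treatment was read within each genotype, and the treated groups of a genotype share its control libraries. With LPS, 11 members were called higher and 4 lower in KO, where 24.5% of all genes were higher and 32.5% lower. In WT, 7 were higher and 2 lower with LPS, where 25.5% of all genes were higher and 27.8% lower (limma). These shares of members lay below those of all genes. The direction of the rises depended on the scaling: the deposited factors placed LPS values above RPM by log2 0.87 in KO and 0.77 in WT relative to control, and IFNg values by 0.44 in both.

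Igha had 2859, 3178 and 3204 in KO LPS and 2277, 2560.5 and 1929 in KO control libraries, a log2 difference of 0.46 (limma adjusted p = 0.00477) that turned to -0.41 in RPM, where it was called lower. Igkc rose by 0.61 and Igj by 0.63 in KO with LPS on the deposited scale, and these values turned to -0.26 and -0.24 in RPM, neither of them called. With RPM the members called with LPS were 0 higher and 28 lower in KO, and 2 higher and 7 lower in WT. Shares of all genes called in RPM are not given here, so these counts are descriptive. On the deposited scale 32.5% of all genes were already lower with LPS in KO. In WT, Igha rose with LPS by 0.85 and Igkc by 0.77, calls that were lost in RPM (log2 ratios of means 0.09 and 0.01). In KO the count of calls with LPS was 33 without KO LPS replicate 2.

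Ighm fell in WT with LPS under either scaling: 122, 159.5 and 158 in WT LPS, against 991, 991 and 894 in WT control libraries, a log2 difference of -2.71 ± 0.19 (SE, limma adjusted p = 9.94e-12). In KO, Ighm was not called with LPS (0.33 on the deposited scale and -0.51 as a ratio of mean RPM). Ighg1 fell in WT LPS to 4.08, 0.633 and 5.95, against 14, 12.9 and 14.7 in WT control libraries (log2 -1.94 ± 0.58 SE, limma adjusted p = 0.00618), a call lost without WT LPS replicate 2. Igkv14-100 fell in KO to 0, 4.92 and 1.25 with LPS, against 11.6, 18.8 and 14.9 in KO control libraries (log2 -2.74 ± 0.70 SE, limma adjusted p = 0.0016), with no overlap. The other members called in KO with LPS on the deposited scale were Ighg2c, Ighv1-42, Igkv1-99, Igkv1-122, Igkv1-133, Igkv2-137, Igkv6-13 and Igkv8-19, which rose, and Ighd, Ighv1-15 and Ighv3-4, which fell. The rises lean on KO LPS replicate 1, where 1 read is a value of 23.6. There Igkv1-99, Igkv1-122, Igkv1-133, Igkv2-137 and Igkv6-13 had 1 read each, Ighv1-42 had 2, Ighg2c 3 and Igkv8-19 4. In RPM no member was called higher in KO with LPS.

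With IFNg, 2 members were higher and 0 lower in KO (background 22.3% higher and 23.7% lower), and 5 were higher and 1 lower in WT (22.5% higher and 22.6% lower; limma). In RPM the counts were 2 higher and 9 lower in KO, and 1 higher and 2 lower in WT, again without a share of all genes. At an unadjusted p below 0.05, limma put 4 members lower in KO, where edgeR called 1 lower and DESeq2 0. The called member that fell in WT was Ighm, to 158, 160.1 and 132 in WT IFNg, against 991, 991 and 894 in WT control libraries (log2 -2.67 ± 0.19 SE), a fall kept under every alternative. Igha in WT rose by 0.69, Igkc by 0.54 and Igj by 0.55, and these 3 calls were lost in RPM. In KO, the same genes were not called (-0.13 for Igha, 0.02 for Igkc and 0.12 for Igj). The KO count was 6 without KO IFNg replicate 2 and 5 without KO control replicate 3.

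With IL4, all members called were lower, and the scaling moved the values little, with shifts of log2 0.04 in KO and 0.02 in WT. In KO, 0 were higher and 5 lower (background 12.6% higher and 10.5% lower), and in WT 0 were higher and 9 lower (10.6% higher and 9.56% lower; limma). In RPM, 8 were lower in KO and 13 in WT, and 0 higher in either, again without a share of all genes. At an unadjusted p below 0.05, 1 member was higher in KO and 0 in WT, and edgeR called 1 higher in KO and 0 in WT, DESeq2 0 in both. Igha had 1262, 1431 and 1361 in KO IL4, against 2277, 2560.5 and 1929 in KO control libraries, and 86.5, 99.0 and 93.3 in WT IL4, against 169.8, 231 and 169 in WT control libraries. Neither pair overlapped, and Igha fell by 0.73 in KO and by 1.01 in WT on the log2 scale (limma adjusted p = 0.000142 and 2.15e-06). Igkc fell by 0.56 in KO and by 1.24 in WT. Igj fell by 1.32 in WT and was not called in KO (-0.25). Ighm fell by 0.76 in KO and, as the largest fall of any member in WT, by 3.71. These 7 calls of Igha, Igkc, Igj and Ighm were kept under all 15 alternatives.

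Summed without Ighm, the members averaged 4104 ± 38.6 in KO IL4 against 6125 ± 517 in KO control, and 315 ± 33.5 in WT IL4 against 683 ± 72.1 in WT control libraries (SD, n = 3 each). In WT, IL4 also lowered Ighg2c, Igkj1, Igkj2, Igkv1-110 and Igkv5-48 (log2 -1.08, -1.20, -1.81, -1.65 and -2.05, limma). The WT count was 5 without WT control replicate 2. In KO, Igkv14-100 fell with IL4 as with LPS (log2 -2.03), though 8 of 15 alternatives lost that call, and Igkv3-9 fell by 1.03.

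**Figure D4:**
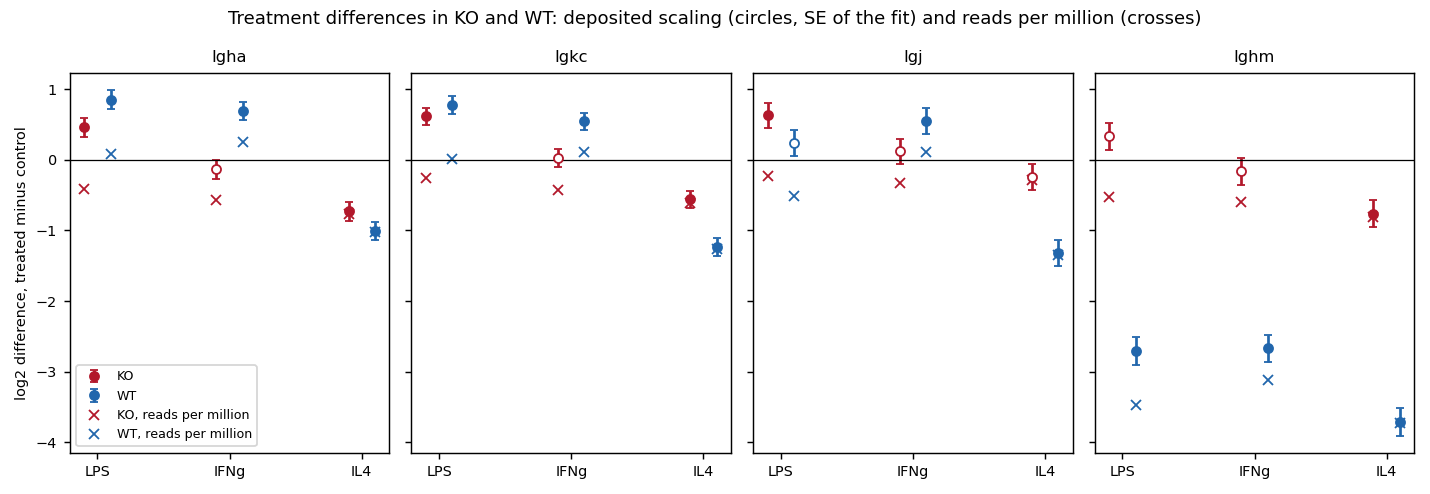
Log2 differences of each treatment against control for Igha, Igkc, Igj and Ighm, with KO left of WT, on the deposited scale (circles with the SE of the fit, filled where called) and in RPM (crosses). The LPS values of Igha in KO are 0.46 on the deposited scale and -0.41 in RPM, whereas IL4 falls and the WT falls of Ighm (-2.71 with LPS, -2.67 with IFNg and -3.71 with IL4) keep their sign on both scales.

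Whether a treatment moved a member differently in KO and WT was tested as an interaction, the change in KO minus the change in WT. With LPS, 2 members were called higher and 0 lower, Ighg1 (2.86 ± 0.82 SE) and Ighm (3.04 ± 0.27), where 4.29% of all genes were higher and 4.5% lower (limma, Benjamini-Hochberg). With IFNg, 1 was higher, Ighm (2.51 ± 0.27), and 1 lower, Igha (-0.82 ± 0.19), where 1.32% of all genes were higher and 1.18% lower. With IL4, 3 were higher and 0 lower, where 2.45% of all genes were higher and 1.15% lower: Ighm (2.95 ± 0.27), Igj (1.07 ± 0.25) and Igkc (0.68 ± 0.18). The Ighm calls, adjusted p 4.91e-08, 3.24e-06 and 5.71e-08 with LPS, IFNg and IL4, held under all 21 alternatives. At an unadjusted p below 0.05, limma put 7 members lower with LPS and 0 with IL4, where edgeR called 1 and 0 lower and DESeq2 0 in both. The 3 interactions share the control libraries of both genotypes, so the high Ighm of the 3 WT control libraries enters each of them. The LPS count was 8 without KO LPS replicate 2, 4 without KO LPS replicate 3, and 1 without WT LPS replicate 2, WT control replicate 3 or any of the KO control libraries, and the IFNg count was 1 without WT IFNg replicate 3 or KO control replicate 2.

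Transcripts that mark the cells making immunoglobulin were read beside the members. Of 15 mature B cell markers, 13 had fewer than 300 reads over the 24 libraries, among them Cr2 with no read, Pax5 with 4, Cd79a with 82 and Ms4a1 with 86. Rag1 and Rag2, which cut the segments during rearrangement, and the surrogate light chain gene Vpreb2 had no read, and Dntt had 1. Pou2af1, a coactivator of immunoglobulin promoters, had 47.3, 45.5 and 46.3 in KO LPS, against 4.08, 6.33 and 15.5 in WT LPS libraries. The 47.3 belongs to KO LPS replicate 1, where 1 read is a value of 23.6, so it rests on few reads. In control it had 8.58, 12.5 and 7.02 in KO, against 1.08, 1.93 and 2.44 in WT libraries. It rose in KO under all 4 treatments, by log2 2.48, 2.17, 2.38 and 1.88 with LPS, IFNg, IL4 and in control (limma adjusted p = 0.000836, 0.00583, 0.00225 and 0.0219).

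Cd79a, a signalling chain of the B cell receptor, rose in KO with LPS and IL4, with 4.14, 3.25 and 3.19 in KO IL4 against 0, 0 and 0 in WT IL4 libraries. With LPS its mean was 4.77 ± 5.02 (SD) in KO, with no read in KO LPS replicate 1, and 0 in WT libraries. Other mature B cell markers went the other way. Cd79b had means of 9.5 in KO IL4 and 18.4 in WT IL4 libraries. Its mean was also lower in KO in control, but higher with LPS and IFNg. Bank1 had means of 3.31 in KO LPS and 10.17 in WT LPS libraries. Its mean was also lower in KO with IFNg and in control, but higher with IL4. Neither was called lower. Mzb1, a chaperone of antibody secretion named after its values were seen, was called in control alone, at 19.6, 11.5 and 14.9 in KO and 1.62, 1.29 and 0 in WT libraries. Summed over the 27 markers of mature B cells, plasma cells and B precursors with fewer than 300 reads, a cutoff chosen after the reads were seen, KO libraries had 94.5 to 138 with LPS, against 43.0 to 61.9 in WT. With IFNg the sums were 67.8 to 81.3 in KO and 36.3 to 44.8 in WT, with IL4 75.5 to 77.7 in KO and 44.4 to 54.9 in WT, and in control 76.3 to 111 in KO and 48.8 to 59.3 in WT libraries. These totals did not overlap between genotypes under any treatment. In KO LPS replicate 1 the total rests on few reads, since 1 read is a value of 23.6. The 3 lists differed. The sum of the 6 plasma cell markers was separate under all 4 treatments, for example at 36.2 to 47.5 in KO IL4 and 11 to 17.9 in WT IL4 libraries. Single markers of the 6 varied. In control Mzb1, Pou2af1, Tnfrsf17 and Eaf2 had the higher mean in KO, whereas Derl3 (5.33 in KO and 8.55 in WT) and Fkbp11 (7.11 and 8.76) had it in WT. Over all 12 plasma cell markers the sum was lower in KO with LPS, at 8245 to 9745 against 11491 to 11791 in WT. That sum was higher in KO under the other treatments. The 13 mature B cell markers overlapped with IFNg, at 20.46 to 34.8 in KO and 17.9 to 20.51 in WT, and with IL4, at 23.4 to 37.3 in KO and 26.5 to 32.6 in WT libraries. The 8 precursor markers were lower in KO with IL4, at 3.55 to 4.55 in KO and 5.65 to 6.92 in WT libraries, and overlapped under the other treatments. The part of such cells in the immunoglobulin values was not tested.

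By count, 1 of 12 plasma cell markers was higher and 5 lower with LPS in KO, 2 higher and 1 lower with IFNg, 3 higher and 0 lower with IL4, and 4 higher and 0 lower in control. The abundant plasma cell markers Sdc1 and Prdm1, which macrophages also express, fell in KO with LPS (log2 -0.25 and -0.24) and rose in control (0.61 and 0.67, limma). Mature B cell markers had 2 higher with LPS and 1 higher under each other treatment of the 12 tested, and none lower. Precursor markers had 2, 1, 2 and 1 higher of 5 tested with LPS, IFNg, IL4 and in control, and none lower. Of all genes, 9.7%, 4.83%, 6.14% and 4.11% were higher with LPS, IFNg, IL4 and in control. Lower were 12.5%, 4.21%, 3.14% and 3.05%. The lists are short, so these counts are descriptive. Cd22, a B cell inhibitory receptor with 17159 reads here, had 727, 809 and 731 in KO control and 522, 539 and 601 in WT control libraries, and rose with LPS, with IFNg and in control by log2 0.48, 0.45 and 0.45. Il7r, the interleukin 7 receptor of B precursors and other cells, had 11207, 12726 and 11948 in KO IFNg and 7368, 8323 and 8375 in WT IFNg libraries, and rose under all 4 treatments. Of the 4 class switching genes, Apobec3 rose with IL4.

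Markers of other cells also differed. The 12 T cell markers summed to 1063 to 1308 in KO LPS and 570 to 607 in WT LPS libraries, to 900.1 to 1010 in KO IFNg and 631 to 669 in WT IFNg libraries, to 71.6 to 95.7 in KO IL4 and 50.9 to 58.9 in WT IL4 libraries, and to 70.1 to 80.7 in KO control and 59.8 to 75.5 in WT control libraries. Lck held most of the LPS sum, at 992, 1090.4 and 1253 in KO and 575, 532 and 524 in WT libraries, and rose with Cd3e (limma, 2 of 12 with LPS), and Lck alone was called with IL4. Cd3e had only 10 reads over the KO LPS libraries (mean 10.99 ± 11.3 SD) and 2 over the WT LPS libraries. The part of T cell markers in the result was not tested. Of 8 macrophage markers, 1, 1, 2 and 0 were higher and 3, 4, 1 and 4 lower in KO with LPS, IFNg, IL4 and in control. Of 6 plasmacytoid dendritic cell markers tested, 1 was higher and 0 lower with LPS, 1 higher and 1 lower in control, and 0 were called with IFNg or IL4. The shares of all genes given beside the B-lineage lists hold here too, and these counts are likewise descriptive.

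**Figure D5:**
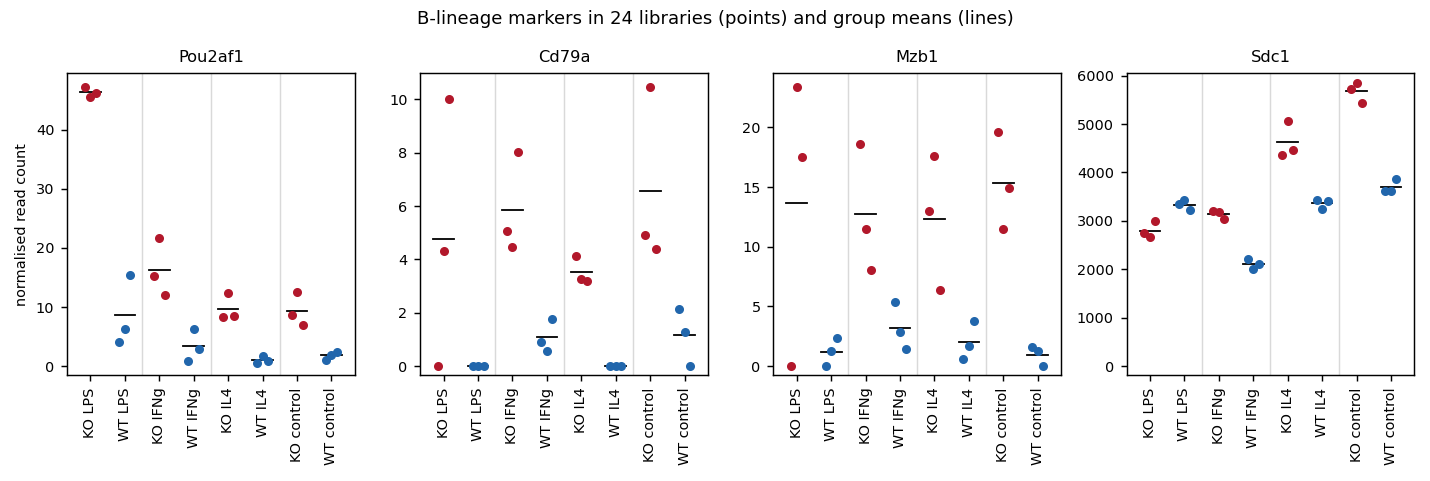
Deposited values (normalised read count, linear axis) of Pou2af1, Cd79a, Mzb1 and Sdc1 in each library, with KO left of WT under each treatment; points are libraries and lines group means. Pou2af1 stands at 45.5 to 47.3 in KO LPS against 4.08 to 15.5 in WT LPS libraries, the highest KO values of any treatment. The 47.3 is that of KO LPS replicate 1, where 1 read is a value of 23.6.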

How the data were processed

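RNA sequencing libraries of 24 BMDM cultures, 3 in each of 8 groups taken from the labels, were analysed. The deposited values are a signal, which the authors made by dividing the read count of each gene by 1 factor per library; whole reads were recovered from the values of every library (100% of values within 0.05 reads). Per the submitters' processing notes, TopHat2 2.2.1, Cufflinks 2.2.1 and Cuffdiff and the build mm10 (GRCm38) were used. The counting of reads, its strand setting and the treatment of reads that match several genes are not given in the sources used here.

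The members and the marker lists were chosen with earlier results of these data known. The 18637 genes that reached a value of 1 in 3 or more libraries were tested with limma 3.58.1 (trend) on log2(value + 1), in 1 fit of the 24 libraries with 8 group means (16 residual degrees of freedom), and p-values were adjusted by the Benjamini-Hochberg method over all genes tested. A member was called at an adjusted p below 0.05. Each gene has a spread shared over the 8 groups, so groups without overlap can go uncalled where other groups vary. A fold change on this scale understates the change of genes with low values. In the library KO LPS replicate 1, a count of 3 reads is a value of 70.9, so precision there is low. Members named are the constant genes, Igj, the 6 heavy, 6 kappa and 3 lambda V segments and the 2 J segments with the highest mean value, some of the 5 called members with the largest difference each way in each KO against WT comparison among those without overlap, the neighbours of the threshold, and markers called in 2 or more of these comparisons; other members and markers were named after their values were seen. Alternatives were edgeR 4.0.16 and DESeq2 1.42.0 on the recovered reads, other pseudocounts (0.5 and 4), no filter, library weights, the groups compared alone, each library left out, a replicate block, and RPM (scaling to the library total), which was added after seeing the data. The fit was tested on simulated data. Sequences and coordinates came from GENCODE M21, which held 318 of the 322 identifiers.

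Over 84 same-numbered pairs of libraries the correlation of deviations from the group means lay between -0.0644 and 0.079. Library depth differed widely, so these low correlations cannot exclude that same-numbered cultures shared a mouse or a day. Values of some marker genes are not reported here.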

Additional observations from a re-analysis of the deposited data

Results flagged for a closer look

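In 7 cases a treatment moved a member differently in KO and WT cultures by the test of the difference itself (limma, Benjamini-Hochberg adjusted; change in KO minus change in WT, log2). Ighm differed with LPS by 3.04, with IFNg by 2.51 and with IL4 by 2.95, with adjusted p-values of 4.91e-08, 3.24e-06 and 5.71e-08, held under all 21 alternatives. All 3 rest on the WT control libraries, at 991, 991 and 894, against 48.8 to 160.1 in all libraries of the other groups, KO control included.

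Ighg1 differed with LPS by 2.86 (adjusted p = 0.0274 in limma, 0.00831 to 0.0953 over 21 alternatives, 7 of which lost the call, among them those without WT LPS replicate 2, without any of the KO control libraries, or without WT control replicate 1 or WT control replicate 3). Igha differed with IFNg by -0.82 (limma adjusted p = 0.0127, 0.000101 to 0.0536), a call lost without WT IFNg replicate 3 or KO control replicate 2. Igj differed with IL4 by 1.07 (limma adjusted p = 0.0134, 0.000161 to 0.0746), lost only when the 4 groups were fitted alone. Igkc differed with IL4 by 0.68 (limma adjusted p = 0.0299, 0.00142 to 0.109), lost under 8 of 21 alternatives.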

How the results depend on the processing

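Counts of members called were recomputed under 21 or fewer alternatives each, and of 273 such counts 208 stayed within 1.5 times; for single genes 7118 of 7590 values kept direction and side of the threshold. Where counts moved, the cause was not tested. Shares of all genes called under the same alternatives are not given here, so these counts are descriptive. Higher in KO (70 with LPS, 62 with IFNg, 70 with IL4 and 79 in control) became 114, 108, 122 and 126 with library weights; edgeR gave 108 with LPS, 101 with IFNg and 115 with IL4, and the LPS groups alone 18. The 1 member lower with IFNg became 2 with no filter and 0 in the IFNg groups alone. For LPS in KO (15 called), library weights gave 27, the groups alone 5, RPM 28, edgeR 23 and DESeq2 8; for LPS in WT (9), library weights gave 15. For IFNg in KO (2), pseudocount 4 and no filter gave 6 each, library weights 15, the groups alone 5, RPM 11, edgeR 4 and DESeq2 0, which called 0 where limma called 2. For IFNg in WT (6) these were library weights 25, the groups alone 14, RPM 3, edgeR 16 and DESeq2 11. For IL4 in KO (5), library weights gave 35, the groups alone 14, RPM 8 and edgeR 14; in WT (9), library weights gave 26, edgeR 23 and DESeq2 18. Interaction counts were 4, 7 and 5 with library weights for LPS, IFNg and IL4 (2, 2 and 3), 1 in the groups alone for LPS and IL4, 4 in RPM for LPS, 4 with edgeR and with DESeq2 for IFNg, and 5 with edgeR for IL4.

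With 1 library left out, members higher in KO numbered 55 to 125 with LPS, 39 to 45 with IFNg, 43 to 56 with IL4 and 49 to 57 in control, and members lower 0 with LPS and IL4, 0 to 1 with IFNg and 1 in control. Calls ranged from 11 to 33 for LPS in KO, 6 to 11 for LPS in WT, 2 to 6 for IFNg in KO, 4 to 7 for IFNg in WT, 4 to 6 for IL4 in KO and 5 to 9 for IL4 in WT. Interaction counts were 1 to 8 for LPS (8 without KO LPS replicate 2), 1 to 2 for IFNg and 2 to 3 for IL4.

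In RPM, 14 values reversed by more than the spread between replicates (1 SD). Igha, Igkc and Igj with LPS in KO became -0.41, -0.26 and -0.24. Treated over control ratios with LPS in KO became 0.717 for heavy V, 0.739 for kappa V, 0.885 for IgG, 0.778 for all members without Ighm and 0.777 for all members. With LPS in WT they became 0.783 for heavy V, 0.968 for kappa V and 0.914 for all members without Ighm. With IFNg in KO they became 0.756 for kappa V, 0.963 for lambda V and 0.844 for IgG. Within that spread, 5 more ratios of these classes also turned to below 1: with LPS, lambda V at 0.587 in KO and 0.760 in WT, and with IFNg in WT, heavy V at 0.955, lambda V at 0.757 and IgG at 0.958.

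With the replicate block, 68, 56, 69 and 78 members were higher in KO with LPS, IFNg, IL4 and in control. It moved no count by over 1.5 times. Whether same-numbered libraries share more than a number is not in the labels. Depth limits the segments with few reads, above all in KO LPS replicate 1 (1 read is a value of 23.6).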
